A study of Mus musculus with 6 samples.

Results

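The 26S proteasome is described here through the genes of its own subunits, activators and assembly factors. Members were all protein-coding genes in the counts whose mouse symbol begins with Psma, Psmb, Psmc, Psmd, Psme or Psmg followed by a digit. The rule found 49 genes among 41388, without use of any measured value. Of these, 47 entered the test between TICs and other tumor cells, alongside 12192 genes in all, and the remaining 2, Psma8 and Psmb11, had no count in any of the 6 samples.

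Both cell groups were sorted by flow cytometry from mammary tumors of FVB/N-TgN(MMTVPyVT)634Mul/J mice, in which the mammary tumor virus promoter drives the polyoma middle T antigen and mammary carcinomas arise. The mice were 12 weeks old, and no drug or second genetic change separated the groups. Tumor initiating cells (TICs) were CD24+CD90+CD45- cells, and the other tumor cells were the CD45- cells outside that gate, which the series' design text describes as lacking both markers. Each group had 3 samples, and each sample pooled 4 cell sorts, so that a p-value measures the spread between pools and not between single mice.

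The proteasome is the barrel-shaped protease that breaks down proteins tagged with ubiquitin, and nearly every cell depends on it. Its 20S core is built from stacked rings of alpha subunits (Psma genes), which form the gate, and beta subunits (Psmb genes), some of which carry the cutting sites. The 19S cap holds a base of ATPases (Psmc genes) that unfold and thread substrates and a lid (most Psmd genes) that removes ubiquitin. Alternative caps (Psme genes) open the core without ubiquitin, assembly factors (Psmg genes, Psmd5, Psmd9 and Psmd10) help build it, and interferon exchanges the constitutive catalytic subunits for inducible ones in the immunoproteasome.

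Total counts ranged from 6781239 to 8450038 in the other tumor cells and from 8114933 to 9100552 in TICs, where a floor of 3 counts equals 0.330 to 0.442 CPM (counts scaled to a common library total) and covers counting error only. The samples differed in cell type genes: 5 of 8 fibroblast markers were called higher in TICs by edgeR's exactTest, with a summed level of 2785 to 3180 CPM in the other tumor cells and 7444 to 10882 in TICs, while the sum of 8 luminal epithelial markers was 5572 to 5921 against 3620 to 4238 CPM with 0 called by exactTest and 2 by DESeq2. Pericyte or smooth muscle markers summed to 578 to 739 against 1002 to 1578 CPM with 1 of 7 called, and endothelial markers to 144 to 176 against 188 to 617 CPM with 0 of 7 called by exactTest, the quasi-likelihood test or DESeq2 and 4 at an unadjusted p below 0.05. Of 12 leukocyte markers, 3 had no count, 1 of the 6 tested was called, and the sums were 25.5 to 52.9 against 48.4 to 153 CPM, whereas Ptprc, which encodes the depleted CD45, had 33 counts in 1 sample of the other tumor cells and 0 in the rest. Of the genes behind the sorting markers, Thy1 (CD90) was at 75.9, 56.7 and 21.6 CPM in the other tumor cells and 90.7, 207 and 70.3 CPM in TICs, and Cd24a at 402, 405 and 602 against 440, 315 and 356 CPM, both with overlap. The basal epithelial list (0 of 4 tested genes, 1 at an unadjusted p below 0.05), the cell division list (0 of 7, 2) and the sorting marker list (0 of 2, 1) held no gene called by these tools. In such sorted bulk samples a lower share of a cell type and less RNA per cell cannot be told apart, and what part the cell type genes have in the proteasome values was not tested.

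Several proteasome genes have near-identical copies, and the sequences matter because the authors kept only reads that mapped to 1 place. Of the 49 members, 26 shared at least 1 50-base stretch of their principal transcript with a transcript of another gene. At least 10% of such stretches were shared in 16 members and over 50% in 5 (Psma5, Psmb3, Psmb5, Psme2 and Psme2b). For Psmb7, Psmb9, Psmc3ip, Psmd13 and Psmg3, the gene sharing most was a neighbour with overlapping exons (Nek6, Tap1, Mlx, Sirt3 and Gm26938). Such overlap is the same place in the genome and not a copy, so these counts are not counts of members with copies. The lines that follow show 90 coding bases, 5′ to 3′ in GENCODE M21 on GRCm38, for the pairs on which results turn, with capitals where the copies differ. Psma3 and its processed pseudogene Gm13835 were identical in all 662 aligned coding bases, so a single line stands for both. Psma5 and its processed pseudogene Gm12989 were identical in 99.0% of aligned coding bases, and Psme2 and Psme2b in 712 of 717 coding bases (99.3%).
Psma3 and Gm13835: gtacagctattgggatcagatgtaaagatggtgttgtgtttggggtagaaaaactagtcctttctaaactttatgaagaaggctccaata
Psma5: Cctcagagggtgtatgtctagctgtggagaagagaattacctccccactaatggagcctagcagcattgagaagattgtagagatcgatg
Gm12989: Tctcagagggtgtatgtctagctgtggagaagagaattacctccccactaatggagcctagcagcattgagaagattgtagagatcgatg
Psme2: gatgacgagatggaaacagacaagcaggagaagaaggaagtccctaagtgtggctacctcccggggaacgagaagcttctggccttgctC
Psme2b: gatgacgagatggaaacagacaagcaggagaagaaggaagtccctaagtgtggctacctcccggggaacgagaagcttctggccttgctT
The windows of Psma5 and Psme2 held 1 difference each, the fewest above 0 in any gap-free window of that length.

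The summed proteasome mRNA overlapped between the groups. The 48 genes of the complex, which leave out Psmc3ip, summed to 7016, 6555 and 6834 CPM in the other tumor cells and to 6792, 6271 and 6374 CPM in TICs. The means were 6802 ± 232 and 6479 ± 276 CPM (SD, n = 3), a ratio of 0.953. With library size as the only scaling the same sum was lower in all TIC samples, with means of 6920 ± 110 and 6323 ± 427 CPM (SD, n = 3), so the separation depended on the scaling. In each sample these genes took 0.595% to 0.705% of all counts. Over the 47 tested members the median log2 fold change of TICs over other tumor cells was -0.03, beside -0.01 over all genes tested, with 21 members above 0 and 26 below.

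At a Benjamini-Hochberg adjusted p below 0.1 in edgeR's exactTest, Psma5 was the only member called higher in TICs (1 of 47, or 2.13%) where 1.36% of all tested genes were. No member was called lower by exactTest, by edgeR's quasi-likelihood test or by DESeq2, against 0.189% of all tested genes by exactTest. At an unadjusted p below 0.05 the test gave 1 member (2.13%) and 957 genes in all (7.85%). All TIC samples lay above all other samples in 2 members, Psma5 and Psmc2 (4.26%, where all tested genes gave 7.69%). All TIC samples lay below in 4 members, Psmc3, Psmc5, Psmd10 and Psmd11 (8.51%, where all tested genes gave 7.55%).

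**Figure D1:**
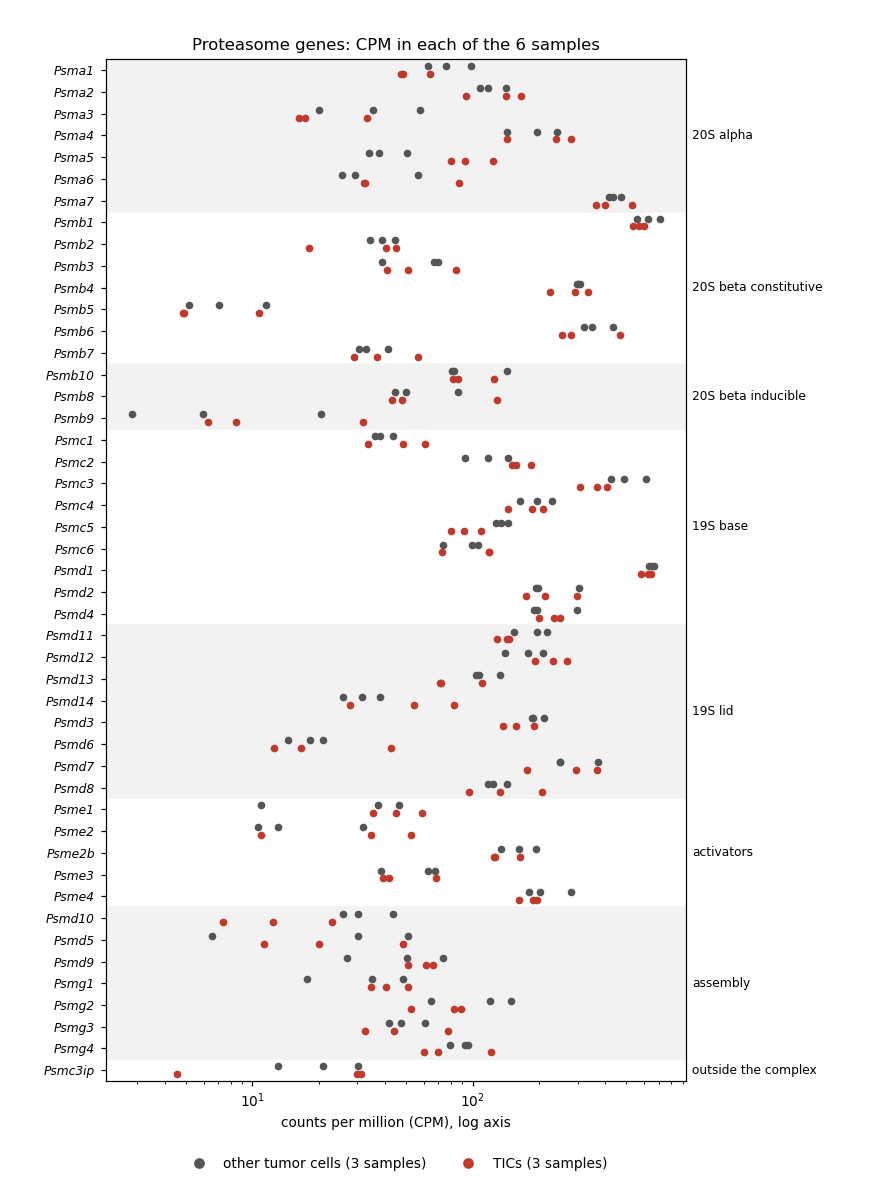
CPM (x axis, log scale) of the 47 tested proteasome genes (y axis, ordered by group), 1 point per sample, with other tumor cells in grey and TICs in red. The points of the groups are interleaved in most rows; Psma5 and Psmc2 have all red points to the right, and Psmc3, Psmc5, Psmd10 and Psmd11 all to the left.

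The members were measured more tightly than most genes. No tested member was at 0 counts in any sample, whereas 2.67% to 8.90% of the tested genes were at 0 in a given sample. The median level was 93.1 CPM for members and 24.5 CPM for all tested genes, and the median tagwise dispersion was 0.102 and 0.382. The 95% interval of the fold change lay within 2-fold in either direction for 21 of 47 members (44.7%) and for 14.0% of all tested genes. For Psmd1, a scaffold subunit of the base, the interval ran from 0.666 to 1.37, and for Psmb1, a constitutive beta subunit, from 0.625 to 1.30. For the other 26 members the interval reached a 2-fold change in at least 1 direction, Psma5 among them.

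**Figure D2:**
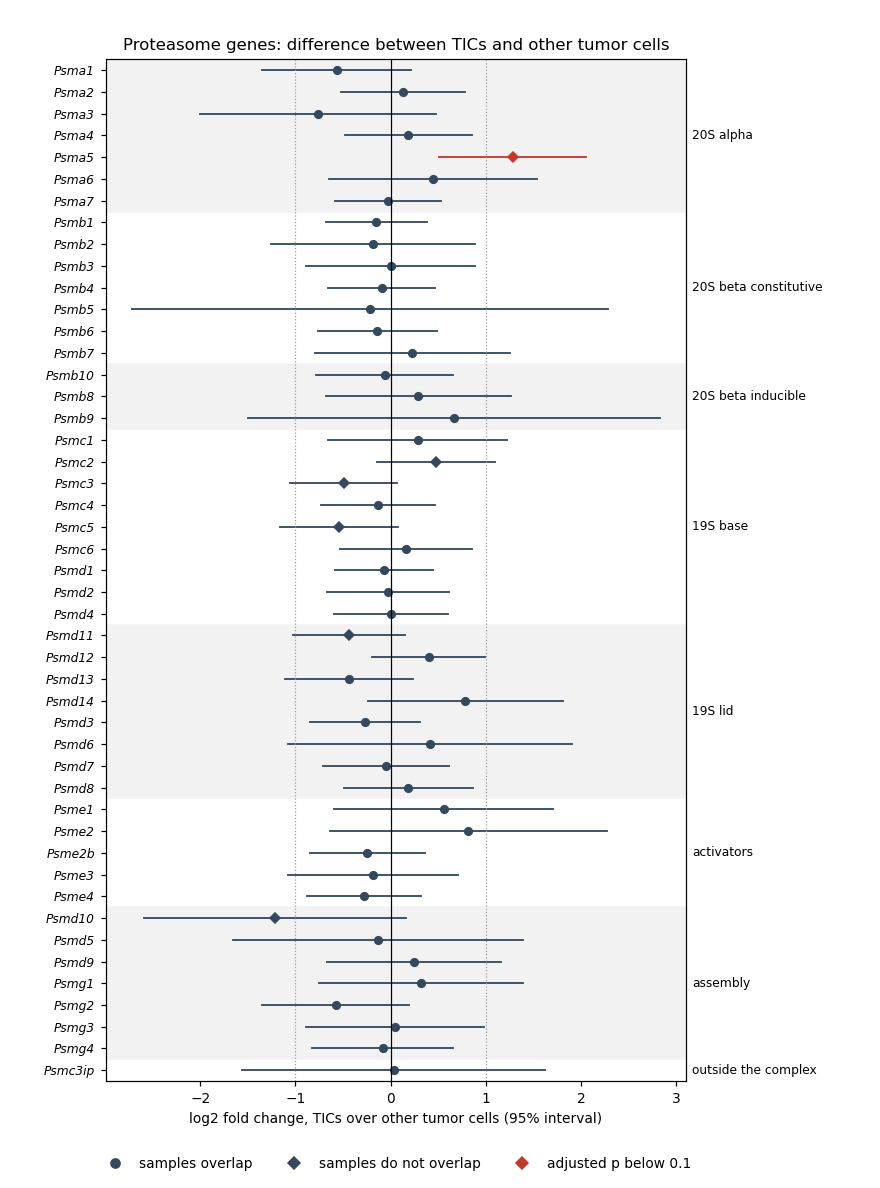
Log2 fold change of TICs over other tumor cells (x axis) with its 95% interval for the 47 tested members (y axis), where diamonds mark members whose samples did not overlap and red marks an adjusted p below 0.1. Only the interval of Psma5 (log2 0.51 to 2.05) excludes 0, and dotted lines mark 2-fold differences.

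Among the alpha subunits, 4 of 7 tested genes were above 0 and the median log2 fold change was 0.13. Psma5 (chr3:108256926-108279974, plus strand) encodes an alpha ring subunit. Its levels were 33.9, 37.7 and 50.3 CPM in the other tumor cells and 79.7, 124 and 92.8 CPM in TICs. Each TIC sample exceeded the highest of the other samples. The means were 40.6 ± 8.6 and 98.7 ± 22.6 CPM (SD, n = 3), a log2 fold change of 1.28 (SE 0.39) or 2.43-fold with a 95% interval of 1.42 to 4.15. The adjusted p of edgeR's exactTest was 0.094. It was 0.0630 by DESeq2, 0.0815 with RLE size factors and 0.0423 among genes with at least 10 counts in every sample. It was 0.227 by edgeR's quasi-likelihood test, 0.146 with library size alone and 0.171 without a filter on low counts. Leaving out 1 sample ended the call in 5 of 6 cases, with an adjusted p of exactTest of 0.448, 0.446 and 0.182 without other tumor cells replicates 1, 2 and 3 and of 0.442 and 0.133 without TIC replicates 2 and 3, and left it at 0.0625 without TIC replicate 1. The log2 fold change lay between 1.09 and 1.47 in these fits.

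The pseudogene Gm12989 had 122, 80 and 41 counts in the other tumor cells and 85, 96 and 121 in TICs, without separation of the groups. A further copy, Gm8394, had between 0 and 2 counts per sample. With the counts of both copies added to Psma5, in an alternative chosen after the data were seen, the log2 fold change was 1.105 (SE 0.36) and the adjusted p of exactTest was 0.139, and every TIC sample remained above every other sample. What part the shared sequence has in the difference was not tested.

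Psma3, another alpha ring gene, had fewer counts than its pseudogene in every sample. Psma3 itself was at 20.1, 35.4 and 57.5 CPM in the other tumor cells and 16.3, 17.3 and 33.1 CPM in TICs, with overlap. The log2 fold change was -0.76 (SE 0.63, adjusted p 0.983). Its processed pseudogene Gm13835 (chr6:31141979-31142663) had 743, 507 and 539 counts in the other tumor cells and 314, 435 and 371 in TICs, 2.08 times the counts of Psma3 over all samples. The level of the copy was 81.0 ± 25.7 against 44.7 ± 8.9 CPM (SD, n = 3), lower in every TIC sample, with a log2 fold change of -0.86 (SE 0.42, adjusted p 0.608). Added together, gene and copy gave 129, 92.9 and 135 CPM against 50.8, 68.0 and 82.1 CPM, again lower in all TIC samples. The log2 fold change of the sum was -0.83 (SE 0.36) and its adjusted p 0.438 in the same fit. Reads that mapped to both loci were not kept. Where the sequences are identical the locus of origin cannot be told apart, and what part the shared sequence has in either count was not tested.

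The other alpha genes overlapped between the groups. Psma7 had the highest level of the ring, 440 ± 29 against 431 ± 86 CPM (SD, n = 3), with a log2 fold change of -0.03 (SE 0.28). The log2 fold changes of Psma1, Psma2, Psma4 and Psma6 were -0.56, 0.13, 0.19 and 0.44, with standard errors between 0.33 and 0.56. The alpha genes summed to 991, 873 and 990 CPM in the other tumor cells and 990, 1032 and 1011 CPM in TICs.

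**Figure D3:**
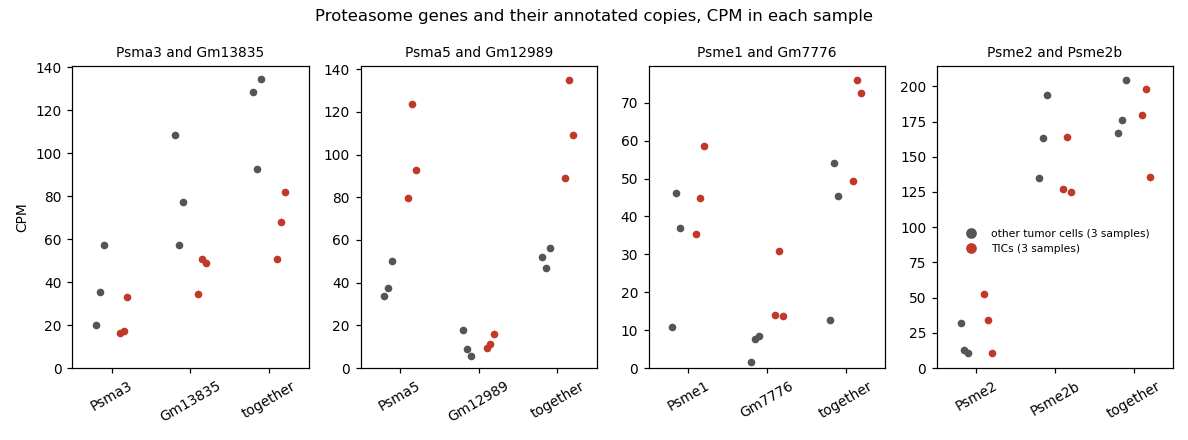
CPM (y axis, linear from 0) of Psma3, Psma5, Psme1 and Psme2, of a copy of each, and of the gene with its copies together, 1 point per sample (grey, other tumor cells, and red, TICs). Gm13835 lies above Psma3 and Psme2b above Psme2 in all 6 samples, and the sum of Psma5 and its copies stays higher in TICs.

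Of the 7 constitutive beta subunits, 6 were below 0 and the median log2 fold change was -0.14, but none was called and all overlapped. The catalytic subunit Psmb5, which carries the chymotrypsin-like site, had the lowest level of the tested core genes, 11.5, 7.04 and 5.15 CPM in the other tumor cells and 4.84, 4.90 and 10.7 CPM in TICs. TIC replicate 3 lay near the highest of the other samples and the remaining TIC samples below all of them. Its log2 fold change was -0.22 with an SE of 1.28, so the 95% interval ran from 0.152-fold to 4.87-fold. Over all of its 50-base stretches, 57.1% were shared with other genes, 49.4% with the processed pseudogene Gm3375, whose counts were not analysed here. Psmb6, with the caspase-like site, was at 320, 351 and 433 CPM against 468, 279 and 255 CPM (log2 fold change -0.14, SE 0.32). Psmb7, with the trypsin-like site, was at 41.2, 30.5 and 32.9 CPM against 56.7, 36.8 and 29.0 CPM (log2 fold change 0.23, SE 0.52). TIC replicate 1 was the highest sample for both. The structural subunits Psmb1, Psmb2 and Psmb4 had log2 fold changes of -0.15, -0.18 and -0.09, and Psmb3 was at 58.6 ± 17.2 against 58.6 ± 22.8 CPM (SD, n = 3).

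The inducible catalytic subunits replace Psmb6, Psmb5 and Psmb7 in the order Psmb9, Psmb8 and Psmb10, and share 64.7% to 68.6% of aligned coding bases with the partner they replace. None was called. Psmb8 was at 85.7, 44.5 and 49.8 CPM in the other tumor cells and 129, 42.9 and 47.6 CPM in TICs. Its log2 fold change of 0.29 (SE 0.49) became -0.39 without TIC replicate 1. Psmb9 was at 5.98, 2.84 and 20.5 CPM against 6.26, 8.39 and 31.8 CPM, with replicate 3 highest in both groups (log2 fold change 0.67, SE 1.104). Without TIC replicate 3 the log2 fold change of Psmb9 was -0.40. Psmb10, the most abundant of the set, was at 80.7, 82.3 and 144 CPM against 126, 85.9 and 81.8 CPM (log2 fold change -0.06, SE 0.37). Psmb11, the thymus form, had 0 counts in all samples, which allows up to 0.442 CPM in the shallowest sample.

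The balance of the inducible to the constitutive catalytic subunits was computed in each sample as the log2 ratio of their summed counts. It was -1.11, -1.58 and -1.14 in the other tumor cells and -1.02, -1.23 and -0.87 in TICs. The groups overlapped, with means of -1.28 ± 0.26 and -1.04 ± 0.18 (SD, n = 3). Per kilobase of exon the difference between the means was 0.20, and per kilobase of principal transcript 0.24. For a single pair, the log2 ratio of Psmb8 to Psmb5 ran from 2.66 to 3.27 in the other tumor cells and from 2.16 to 4.74 in TICs.

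Peptide loading and interferon genes were read beside the immunoproteasome because interferon also induces many of them. Of these 19 genes, 0 were called by exactTest, the quasi-likelihood test or DESeq2, and 0 had an unadjusted p of exactTest below 0.05. Tap1, the peptide transporter gene next to Psmb9, was at 90.9, 85.9 and 85.8 CPM in the other tumor cells and 58.8, 49.3 and 80.5 CPM in TICs, lower in every TIC sample (log2 fold change -0.48, SE 0.37, adjusted p 0.958). Of the 19 genes, 1 was lower and 1 higher in every TIC sample, where 7.55% and 7.69% of all tested genes were. Psmb9 and Tap1 share exonic sequence, since 12.5% of the 50-base stretches of Psmb9 also lay in Tap1 transcripts.

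**Figure D4:**
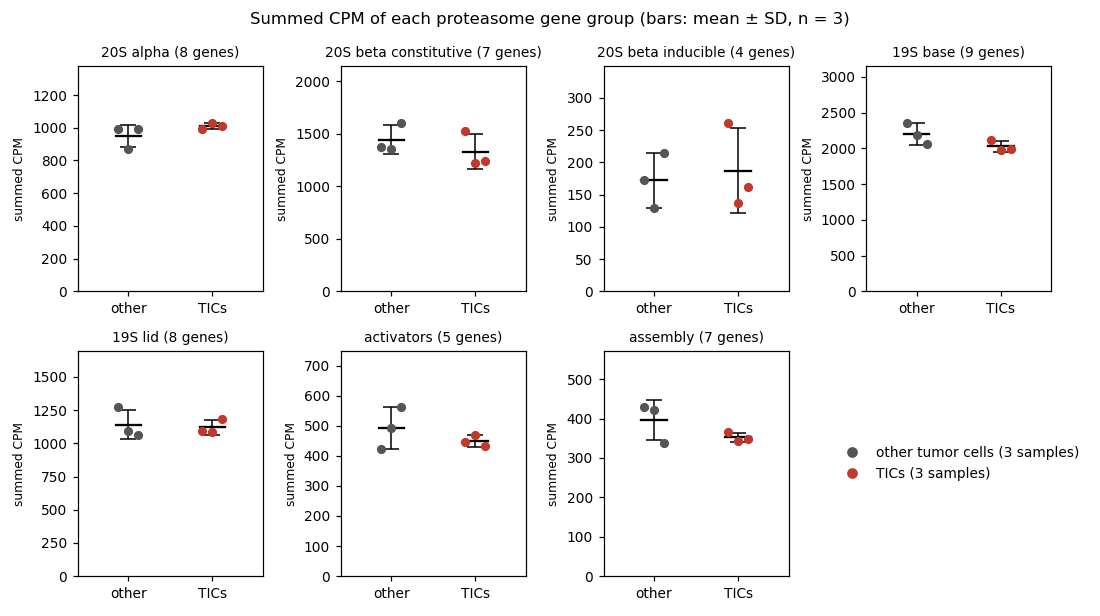
Summed CPM (y axis, linear from 0) of each proteasome gene group in the 6 samples, 1 point per sample, with the mean and SD of 3 samples as bars. All 7 groups overlap, from 172 ± 42 against 187 ± 66 CPM for the inducible beta subunits to 2204 ± 151 against 2029 ± 76 CPM for the 19S base.

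None of the 17 genes of the 19S cap was called. Among the 9 base genes the median log2 fold change was -0.03, with 4 above 0. Psmc2, Psmc3 and Psmc5 encode ATPase subunits of the same ring. Psmc2 was at 145, 92.5 and 117 CPM in the other tumor cells and 185, 158 and 152 CPM in TICs, higher in every TIC sample. Psmc3 was at 611, 490 and 424 CPM against 407, 367 and 309 CPM, and Psmc5 at 135, 145 and 128 CPM against 91.4, 79.9 and 109 CPM, both lower in every TIC sample. The gap was narrow for Psmc2 (145 against 152 CPM) and Psmc3 (424 against 407 CPM) and wider for Psmc5 (128 against 109 CPM). The log2 fold changes were 0.48 (SE 0.32), -0.49 (SE 0.29) and -0.54 (SE 0.32), with adjusted p of 0.884, 0.793 and 0.793 in exactTest. In every alternative fit these 3 genes kept their sign and none was called.

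The remaining ATPase genes, Psmc1, Psmc4 and Psmc6, had log2 fold changes of 0.28, -0.13 and 0.16. The large scaffold subunits Psmd1 and Psmd2 were at 652 ± 15 against 622 ± 33 CPM and 233 ± 63 against 228 ± 63 CPM (SD, n = 3). Psmd4, a receptor for ubiquitin chains, was at 298, 196 and 190 CPM against 251, 200 and 233 CPM.

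Of the 8 lid genes, 4 were above 0 and the median log2 fold change was 0.07. Psmd11, a scaffold subunit of the lid, was at 218, 196 and 154 CPM in the other tumor cells and 146, 143 and 129 CPM in TICs, lower in every TIC sample. Its log2 fold change was -0.44 (SE 0.30, adjusted p 0.903). Psmd14, the subunit that cuts ubiquitin chains from substrates, was at 25.7, 38.1 and 31.6 CPM against 82.6, 27.7 and 54.2 CPM, with TIC replicate 2 inside the range of the other samples. Its log2 fold change of 0.79 (SE 0.52, adjusted p 0.892) was the highest of the cap. Psmd12 and Psmd6 were at 0.40 and 0.42 on the log2 scale, and Psmd13, Psmd3 and Psmd7 at -0.44, -0.27 and -0.05.

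The cap genes together summed to 3631, 3284 and 3125 CPM in the other tumor cells and 3208, 3064 and 3182 CPM in TICs. The groups overlapped under TMM scaling, while with library size alone every TIC sample was below, with means of 3402 ± 170 and 3074 ± 121 CPM (SD, n = 3). The log2 ratio of cap to core counts was 0.38 ± 0.20 in the other tumor cells and 0.32 ± 0.10 in TICs (SD, n = 3), with overlap. Per kilobase of exon its mean was 0.05 and -0.07.

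None of the 5 activator genes was called, and all overlapped between the groups. Psme1 and Psme2 encode the interferon-inducible cap that opens the core for peptides. Psme1 was at 10.9, 46.3 and 37.0 CPM in the other tumor cells and 35.3, 44.9 and 58.7 CPM in TICs, with other tumor cells replicate 1 far below the rest (log2 fold change 0.56, SE 0.59). Its processed pseudogene Gm7776 had 11, 68 and 59 counts in the other tumor cells and 127, 266 and 105 in TICs, higher in every TIC sample, with a log2 fold change of 1.72 (SE 1.03, adjusted p 0.859). Psme1 with this copy gave a log2 fold change of 0.82 (SE 0.53, adjusted p 0.884).

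Psme2 was at 31.8, 13.0 and 10.6 CPM against 52.3, 34.4 and 10.95 CPM, with a log2 fold change of 0.82 (SE 0.74). Psme2b (chr11:48945354-48946190) had 5.73 times the counts of Psme2 (chr14:55587441-55591113) over the 6 samples. It was at 135, 163 and 194 CPM against 127, 164 and 125 CPM, with a log2 fold change of -0.24 (SE 0.31). Taken as 1 gene, both together were at 167, 176 and 205 CPM against 179, 198 and 136 CPM. The log2 fold change of the sum was -0.09 (SE 0.30), opposite in sign to that of Psme2 alone, and all 3 measures overlapped between the groups.

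Psme3, which encodes a nuclear activator, was at 63.0, 67.6 and 38.3 CPM against 67.9, 39.3 and 41.6 CPM (log2 fold change -0.18, SE 0.46). Psme4, which encodes the large single-chain activator, was at 180, 203 and 281 CPM against 162, 188 and 196 CPM (log2 fold change -0.28, SE 0.30).

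Among the 7 assembly factors the median log2 fold change was -0.08, with 3 above 0. Psmd10, which encodes gankyrin, a chaperone of the base that also binds cell cycle regulators, had the lowest log2 fold change of all members. It was at 30.2, 43.5 and 25.7 CPM in the other tumor cells and 23.0, 7.34 and 12.4 CPM in TICs, lower in every TIC sample. The means were 33.1 ± 9.2 and 14.2 ± 8.0 CPM (SD, n = 3), a log2 fold change of -1.22 (SE 0.70, adjusted p 0.799). The 95% interval ran from 0.166-fold to 1.11-fold, and 63 to 383 counts stood behind each value. Psmd5, another chaperone of the base, ranged 7.71-fold among the other tumor cells alone, from 6.58 to 50.7 CPM. The core chaperones Psmg1, Psmg2, Psmg3 and Psmg4 had log2 fold changes of 0.32, -0.58, 0.04 and -0.08, all with overlap. Psmc3ip, named for a partner of Psmc3, acts in meiotic recombination and is no proteasome subunit, and it was at 13.1, 21.0 and 30.2 CPM against 29.9, 4.55 and 31.3 CPM.

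Partners of the proteasome outside the symbol rule were read from lists. Of 13 proteasome partner genes, 0 were called by exactTest, the quasi-likelihood test or DESeq2 and 1 (Ube3c) had an unadjusted p below 0.05. Above 0 were 7 genes, with a median log2 fold change of 0.0045, and 3 of 13 were lower in every TIC sample, where 7.55% of all tested genes were. Their summed level was 1805, 1919 and 1801 CPM in the other tumor cells and 1745, 1612 and 1652 CPM in TICs, lower in every TIC sample. Pomp, the maturation factor of the core, was at 379, 374 and 368 CPM in the other tumor cells and 203, 268 and 340 CPM in TICs (log2 fold change -0.47, SE 0.29, adjusted p 0.859). Ube3c, a ubiquitin ligase bound to the proteasome, was at 86.0, 143 and 132 CPM against 65.3, 49.9 and 49.3 CPM (log2 fold change -1.13, SE 0.36, adjusted p 0.123). Zfand5, a zinc finger protein that binds the proteasome, was at 273, 306 and 294 CPM against 198, 201 and 240 CPM (log2 fold change -0.45, adjusted p 0.854). Psmf1, an inhibitor of the core, overlapped, with a log2 fold change of -0.24 (SE 0.64).

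Of 14 tested regulators and shuttles, 0 were called by any of the 3 tools and 0 had an unadjusted p below 0.05. Nfe2l1, the transcription factor that raises proteasome genes when proteolysis is blocked, was at 200, 268 and 340 CPM against 376, 230 and 281 CPM (log2 fold change 0.13, SE 0.32). Vcp, the segregase that delivers ubiquitinated proteins, and Rad23b, a shuttle, were lower in every TIC sample, with log2 fold changes of -0.52 (SE 0.31) and -0.35 (SE 0.27). They were 2 of the 14 tested genes, where 7.55% of all tested genes were lower in every TIC sample.

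Levels per kilobase were compared because counts also depend on transcript length. By length of the principal transcript, the 14 alpha and constitutive beta genes ran from 8.18 CPM per kilobase for Psmb5 to 477 for Psma7, a 58.3-fold range with a median of 55.6. By length of all annotated exons the range was 24.4-fold, from 7.69 for Psma3 to 188 for Psmb6. Psma7, Psmb6 and Psmb1 held the highest 3 places of the complex by principal transcript, and Psmb5, Psmb9 and Psma3 were among the lowest 4. These levels are not corrected for reads lost to copies. Psmb5, Psma3 and Psmb9 shared 57.1%, 22.0% and 12.5% of their 50-base stretches with other genes, and Psma7, Psmb6 and Psmb1 0%, 2.67% and 2.81%. For Psmb9 the shared stretches lay in Tap1, whose exons overlap it at the same locus, and not in a copy. Psmd5, the lowest of the complex, shared 0.644%. What part shared sequence has in the range was not tested. The 17 cap genes ran from 15.1 for Psmd6 to 266 for Psmc3, a 17.7-fold range. Only 7 of 14 core genes and 10 of 17 cap genes lay within 2-fold of their set's median. Across the tested members, Pearson's r of log2 CPM was 0.853 to 0.921 between pairs of samples, against 0.683 to 0.807 across all tested genes. Genes are not independent replicates, and both values are descriptions.

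**Figure D5:**
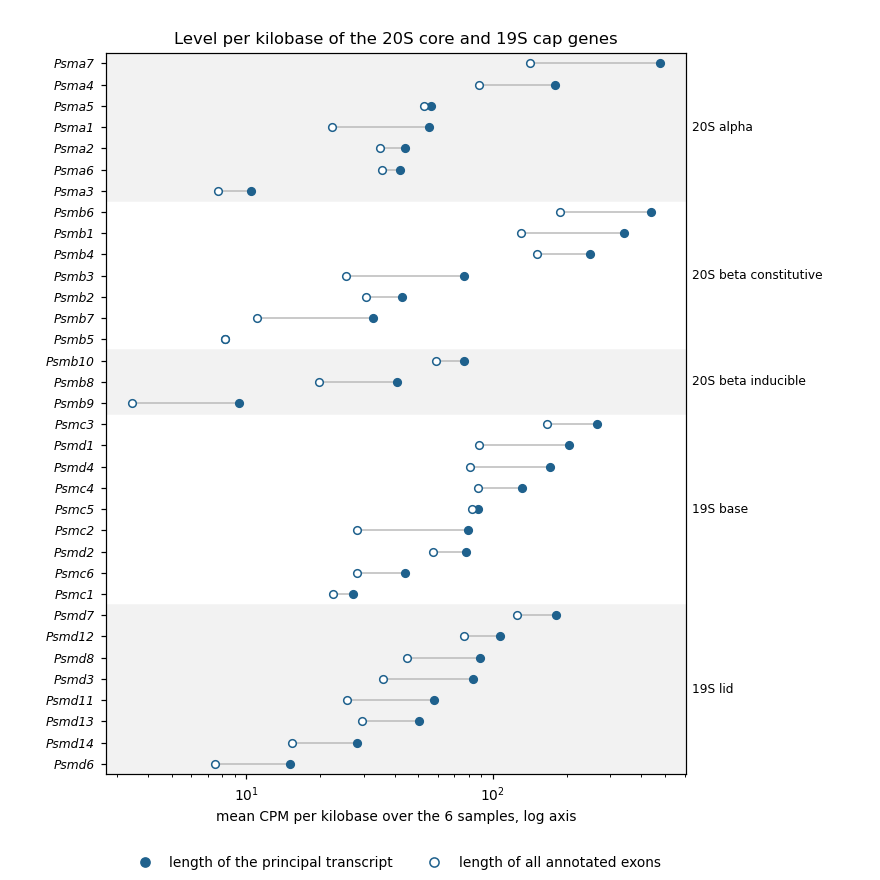
Mean CPM per kilobase over the 6 samples (x axis, log scale) of the tested 20S core and 19S cap genes (y axis), with filled points for the principal transcript length and open points for the length of all annotated exons. Psma7 is highest (477) by principal transcript and Psmb5 (8.18), Psmb9 and Psma3 (10.5) lie far to the left of their groups. Levels are not corrected for sequence shared with copies.

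Promoter windows, 250 bases before to 50 after the start site in RefSeq on GRCm38.p6, were found for 41 of the 49 members (44 windows). Motifs were searched on both strands and may overlap. The antioxidant response element core TGACNNNGC, the element bound by the proteasome factor Nfe2l1 among others, lay in 13.6% of member windows and in 12.4% of all 32851 windows. The GC box GGGCGG lay in 54.5% against 35.7% and CCAAT in 34.1% against 37.4%. The interferon element part GAAANNGAA lay in 15.9% against 8.56% and the gamma-activated site TTCNNNGAA in 6.82% against 8.30%. Among the interferon-inducible members, Psme1 held GAAANNGAA and Psmb8 held TTCNNNGAA, while Psmb8, Psmb9, Psmb10 and Psme2 held no GAAANNGAA. The 100 bases before the start site are shown for the genes with the highest and lowest log2 fold change, Psma5 (chr3:108256826-108256925, plus strand) and Psmd10 (chrX:140956712-140956811, minus strand), with motif matches in capitals.
Psma5: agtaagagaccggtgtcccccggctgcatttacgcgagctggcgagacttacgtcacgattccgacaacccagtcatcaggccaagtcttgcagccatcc
Psmd10: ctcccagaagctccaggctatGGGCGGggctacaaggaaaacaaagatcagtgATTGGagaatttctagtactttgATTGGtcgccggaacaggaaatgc
In this stretch Psma5 held none of the 5 motifs and Psmd10 held a GC box and CCAAT boxes on the opposite strand. A match is a description of letters and not a binding site.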

How the data were processed

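RNA-seq of 6 pooled samples, 3 of TICs and 3 of other tumor cells, was used. The submitters' processing notes name Trimmomatic 0.32, STAR 2.4.0, SAMtools 1.1 and HTSeq on GRCm38. The authors kept uniquely mapped reads and deposited raw counts per Ensembl gene, whose annotation release is not given in the sources used here. Read length and strand setting were likewise not given, so overlapping genes could share reads.

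From these counts, 12192 of 41388 genes were tested, those that exceeded 1 CPM in 3 or more samples. TMM factors, common and tagwise dispersions and exactTest came from edgeR 4.0.16 under R 4.3.3, with Benjamini-Hochberg adjustment over all tested genes and a threshold of 0.1. CPM are TMM-scaled. Standard errors came from the negative binomial model with tagwise dispersions, and intervals are 95%. DESeq2 1.42.0 and other settings were alternatives. Replicate numbers follow sample order and pair nothing. Symbols, lengths and transcripts came from GENCODE M21, which named 40340 genes; genes without a symbol held 0.133% of counts.

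The members and lists were chosen with earlier results of these data known. Any member could be named. Full statistics were given for called members, members with samples apart, the extremes of each group, Psmb5 to Psmb10, the activators and Psmc3ip, and for listed genes that were called, apart or paired with the core. The 3 against 3 samples allow a smallest exact permutation p of 0.1, so no such test was used. Scripts were tested on simulated counts of 11559 genes, of which 200 changed 4-fold. At the threshold of 0.1, exactTest recovered 60% of the changed genes, the quasi-likelihood test 56.5% and DESeq2 66.5%. Of the genes each called, 18.9%, 11.7% and 44.1% in that order were false. The false share in that simulation thus exceeded the threshold for each test, most for DESeq2. Results for some genes of the related lists are not reported here.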

Additional observations from a re-analysis of the deposited data

How the results depend on the processing

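Counts of called genes moved most. Over all genes, 189 were called by exactTest, 50 by the quasi-likelihood test, 306 by DESeq2, 112 without a filter, 116 at an adjusted p below 0.05 and 72 to 323 with 1 sample left out. The number of members called higher was 1 and became 0 by the quasi-likelihood test, with library size alone, without a filter and at an adjusted p below 0.05. It was also 0 with pseudogene copies added to their members and Psme2b added to Psme2, an alternative chosen after seeing the data. That left 46 members tested. The copies sharing most with Psmb5 and Psmb3, Gm3375 and AC114990.1, were not among those added. With 1 sample left out the number of members called higher was 0 to 1. No member was called lower in any setting. Among 257 values of 21 named genes under alternatives, 13 in 8 genes changed sign. With library size alone Psmc3ip was at -0.0497 on the log2 scale, and with its copy added Psme2 was at -0.0926. With 1 sample left out, log2 fold changes ran from -0.27 to 0.27 for Psmb10, -0.68 to 0.17 for Psmb5, -0.45 to 0.0418 for Psmb6, -0.0648 to 0.44 for Psmb7, -0.39 to 0.65 for Psmb8, -0.40 to 1.81 for Psmb9 and -0.30 to 0.51 for Psmc3ip. In the same fits with 1 sample left out, the group medians ran from -0.27 (without TIC replicate 1) to 0.56 for the inducible beta genes. They ran from -0.0206 (without TIC replicate 2) to 0.26 for the alpha genes and -0.17 to 0.0418 (without TIC replicate 3) for the constitutive beta genes. The range was -0.0841 to 0.0474 for the base, -0.17 to 0.23 for the lid and -0.0963 to 0.13 for the assembly factors. Each of these medians changed sign, while that of the activators ran from -0.17 to -0.0297. With library size alone the medians were -0.237 for the activators, -0.193 for the constitutive beta genes and -0.0900 for the base. With at least 10 counts in every sample the median of the base was 0.0109. With library size alone the mean summed level in TICs was 986 CPM for the alpha genes and 3074 CPM for the cap. The cause of these shifts was not tested. The groups may share mice, but the labels do not say which samples came from the same tumors. They carry no replicate number, so no paired analysis was possible. Among the tested members the SE of the log2 fold change was largest for Psmb5 (1.28), followed by Psmb9 (1.104).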
